A study of Mus musculus with 12 samples.

Results

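The Pax genes encode transcription factors that bind DNA through a paired domain, and the 9 members of the mouse family, *Pax1* to *Pax9*, were followed here in RNA sequencing of 4 groups of neural cells derived from embryonic stem (ES) cells. Members were found by their symbols after Ensembl identifiers of the deposited count table had been matched to gene names. All 9 were among its 45706 genes, and 8 of the 9 had enough counts to be tested beside 17003 genes in all. *Pax4* was the member left out. NPC are glial progenitors that carry the label Sox1 negative and were not sorted by that label. NPC(+) are progenitors labelled Sox1 positive and sorted, in which the activator dCas9-VP64 had been directed to the *Sox1* promoter by guide RNAs. NSC are unsorted neuroepithelial cells, and NR are neural rosettes sorted on green fluorescent protein (GFP). The cells shared the strain C57BL/6, and GFP had been inserted into 1 allele of *Sox1* in the reporter line. Every group had 3 libraries. Progenitor lines carrying dCas9-VP64 were clonal, and which of them gave which library is not stated in the sources used here. By these labels NPC and NPC(+) differ in the targeting and in the sort at once, so the 2 cannot be told apart. The study's own text speaks of sorting for this pair of groups, and whether NPC was sorted as well is therefore uncertain.

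Pax proteins fall into subfamilies that differ in whether they keep a homeodomain and an octapeptide beside the paired domain. *Pax6* and *Pax4* form the subfamily with a full homeodomain and no octapeptide. *Pax6* is a regulator of eye, cortex and ventral spinal cord, and it is active in radial glia, while *Pax4* acts in the endocrine pancreas. *Pax3* and *Pax7* have the full homeodomain and the octapeptide, and they mark the dorsal neural tube, the neural crest and the precursors of skeletal muscle. *Pax2*, *Pax5* and *Pax8* keep part of the homeodomain and act at the boundary of midbrain and hindbrain. *Pax2* and *Pax8* also act in kidney, *Pax8* in thyroid and *Pax5* in B cells. *Pax1* and *Pax9* lack the homeodomain and act in the sclerotome, which forms the vertebrae, and in the pharyngeal pouches.

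The members of a subfamily are close in coding sequence, which bears on whether reads could be counted for the wrong member. The longest runs shared by the coding sequences of 2 members, read from GENCODE M21 transcripts on GRCm38, were in pairs of 1 subfamily, and they are shown because they are the places where the members are hardest to tell apart. All letters are lower case because every base is shared.
Pax2 and Pax8: ggcaggtactacgagactggcagcatc
Pax1 and Pax9: atcctggcgcgctacaacgagaccgg
Pax3 and Pax7: ctggaagtgtccacccctcttggcca
The run of *Pax2* and *Pax8* has 27 bases and the others have 26, and the next longest, in *Pax8* and *Pax9*, has 20. Over the whole exons only 1 stretch of 50 bases occurred in 2 members, in *Pax1* and *Pax6*. Reads of that length or longer therefore separate the members at nearly every position. Other overlaps exist outside the family. Of the 50-base stretches of *Pax5*, 665 of 9479 (7.02%) also lie in the overlapping transcripts 5730488B01Rik and Gm12462, and 276 of *Pax8* lie in Gm13415.

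The windows before the starts of the members were searched for CpG (the letters CG), the dinucleotide that is methylated in mammalian DNA. RefSeq windows of 250 bases before the start, on GRCm38.p6, were found for 7 of the 9 members, and *Pax3* and *Pax4* had no entry. The windows of *Pax6* and *Pax9* are shown because these were the members with counts in all 12 libraries, and those of *Pax2* and *Pax5* as examples of members at or near 0 in both progenitor groups. *Pax2* has 3 windows, and the one shown is the last before the start of the gene in GENCODE. *Pax6* has another window inside the gene, at chr2:105682213-105682462. That window also holds 15 CpG, and all its 250 bases lie in GENCODE exons. The *Pax6* window shown is the one before the start of the gene. Capitals mark CpG, which reads the same on both strands.
Pax6, chr2:105668646-105668895, plus strand: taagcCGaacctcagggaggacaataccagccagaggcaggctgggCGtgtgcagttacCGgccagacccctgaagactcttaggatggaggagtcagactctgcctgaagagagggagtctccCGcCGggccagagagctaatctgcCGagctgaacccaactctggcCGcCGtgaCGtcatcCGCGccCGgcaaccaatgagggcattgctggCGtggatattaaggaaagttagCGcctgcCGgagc
Pax9, chr12:56695221-56695470, plus strand: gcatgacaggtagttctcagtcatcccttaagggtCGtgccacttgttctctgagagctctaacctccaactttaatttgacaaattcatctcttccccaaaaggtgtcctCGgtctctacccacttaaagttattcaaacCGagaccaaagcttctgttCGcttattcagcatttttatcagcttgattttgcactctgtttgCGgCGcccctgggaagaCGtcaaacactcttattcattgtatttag
Pax2, chr19:44755502-44755751, plus strand: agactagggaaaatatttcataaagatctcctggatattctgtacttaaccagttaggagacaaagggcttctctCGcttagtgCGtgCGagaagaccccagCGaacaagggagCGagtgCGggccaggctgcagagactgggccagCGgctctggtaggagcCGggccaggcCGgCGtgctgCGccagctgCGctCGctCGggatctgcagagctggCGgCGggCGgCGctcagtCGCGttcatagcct
Pax5, chr4:44710695-44710944, minus strand: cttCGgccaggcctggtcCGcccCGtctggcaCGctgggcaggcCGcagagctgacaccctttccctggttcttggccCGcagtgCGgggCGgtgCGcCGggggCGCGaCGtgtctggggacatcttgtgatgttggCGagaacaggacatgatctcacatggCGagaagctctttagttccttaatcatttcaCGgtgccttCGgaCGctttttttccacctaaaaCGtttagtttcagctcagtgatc
The window shown for *Pax2* holds 20 CpG and that of *Pax5* holds 19, against a median of 6 in 32851 such windows of all genes. The other windows of *Pax2* hold 5 and 25, and among the other members that were near 0 in the progenitors the window of *Pax7* holds 13 and that of *Pax8* holds 6, so the near-absent members did not share a high number. That of *Pax1* holds 10. As many CpG as in the window shown for *Pax2* occurred in 18.0% of the windows, as many as in *Pax5* in 19.7%, as many as in *Pax6* (15) in 27.3% and as many as in *Pax9* (7) in 46.3%. At least 1 CpG occurred in 92.1% of all windows. None of these 4 windows lies in an exon of GENCODE M21, and that of *Pax9* lies inside the gene as GENCODE draws it. No methylation was measured in these libraries.

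Depth differed between the groups and limits what can be said of the weak members. An NPC library held 4939268 to 18351483 counts and an NPC(+) library 3407066 to 6315574, against 29046205 to 43095688 for NSC and 16707006 to 34594885 for NR. Levels are given as counts per 1000000 (CPM) after TMM scaling, and levels of different genes are compared only as CPM per kilobase of exon (RPKM). A total of 3 counts over a group, the limit that a count of 0 allows, are equal to 0.104 CPM for NPC, 0.189 CPM for NPC(+), 0.0282 CPM for NSC and 0.0362 CPM for NR, for counting error only. *Sox1*, the targeted gene, stood at 4.83 to 5.99 CPM in NPC and at 20.2 to 21.7 CPM in NPC(+), while NSC had 48.6 to 64.9 CPM and NR had 4.61 to 20.0 CPM, with NR replicate 1 the lowest. The sort label of NR is thus not matched by a higher *Sox1* than in NSC. The libraries labelled NR also held 889 to 1581 CPM summed over 8 pluripotent markers, against 40.5 to 93.5 in NSC, 32.8 to 42.5 in NPC and 11.8 to 12.9 in NPC(+). They held 607 to 1043 CPM over 8 markers of surface ectoderm and placodes, against 149 to 235 in NSC. Of the 8 pluripotent markers 7 were called higher and 1 lower in NSC against NPC (median log2 fold change 3.93). In NPC(+) against NPC 0 were higher by edgeR's quasi-likelihood test, 1 by DESeq2, and 1 was lower by either (median 0.27). The pluripotent sums of NPC and NPC(+) therefore do not describe most of these markers. In bulk RNA, fewer cells that express a gene and less RNA per cell cannot be told apart.

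*Pax6* was the strongest member of the family in every group, and its level divided the 4 groups into 3 steps. It lies at chr2:105668900-105697364 on the plus strand and has 11694 bases of exon. The 3 NPC libraries held 57.9, 60.5 and 55.7 CPM, and the 3 NPC(+) libraries held 34.7, 33.9 and 32.8 CPM. The groups did not overlap, and within each the libraries lay close together. NSC libraries held 115, 98.9 and 127 CPM, above all others. NR libraries held 19.9, 40.3 and 41.0 CPM, spread around the NPC(+) values with NR replicate 1 the lowest of the 12. The mean of NPC was 58.0 ± 2.41 CPM, that of NPC(+) 33.8 ± 0.943, that of NSC 114 ± 13.9 and that of NR 33.7 ± 12.0 (SD, n = 3 each).

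In NPC(+), *Pax6* fell by 0.78 on the log2 scale against NPC (SE 0.22, adjusted p = 0.0105), which is 1.72-fold lower. It was 1.95-fold higher in NSC than in NPC (log2 fold change 0.97, SE 0.20, adjusted p = 0.000599) and lower in NR than in NPC (-0.77, SE 0.20, adjusted p = 0.00312) and than in NSC (-1.74, SE 0.20, adjusted p = 1.81e-05). NPC(+) was also below NSC (-1.75, SE 0.21, adjusted p = 5.88e-06). Only NPC(+) and NR, neighbours in this order, were not told apart (-0.01, SE 0.21, adjusted p = 0.970). The sign of this difference turned under 12 of 21 alternatives, and without NR replicate 1, the lowest library, NPC(+) was called lower than NR (-0.23, adjusted p = 0.0663) while NR stayed below NPC (-0.56). The order was therefore NSC, then NPC, then NPC(+) and NR. After every library was thinned to 3407066 counts, *Pax6* kept 169, 200 and 187 counts in NPC and 120, 120 and 104 in NPC(+), again without overlap. *Sox2*, whose protein binds DNA together with Pax6 on lens enhancers, was likewise lower in NPC(+), at 81.4 CPM against 284 in NPC (-1.80, SE 0.10, adjusted p = 2.10e-08).

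**Figure D1:**
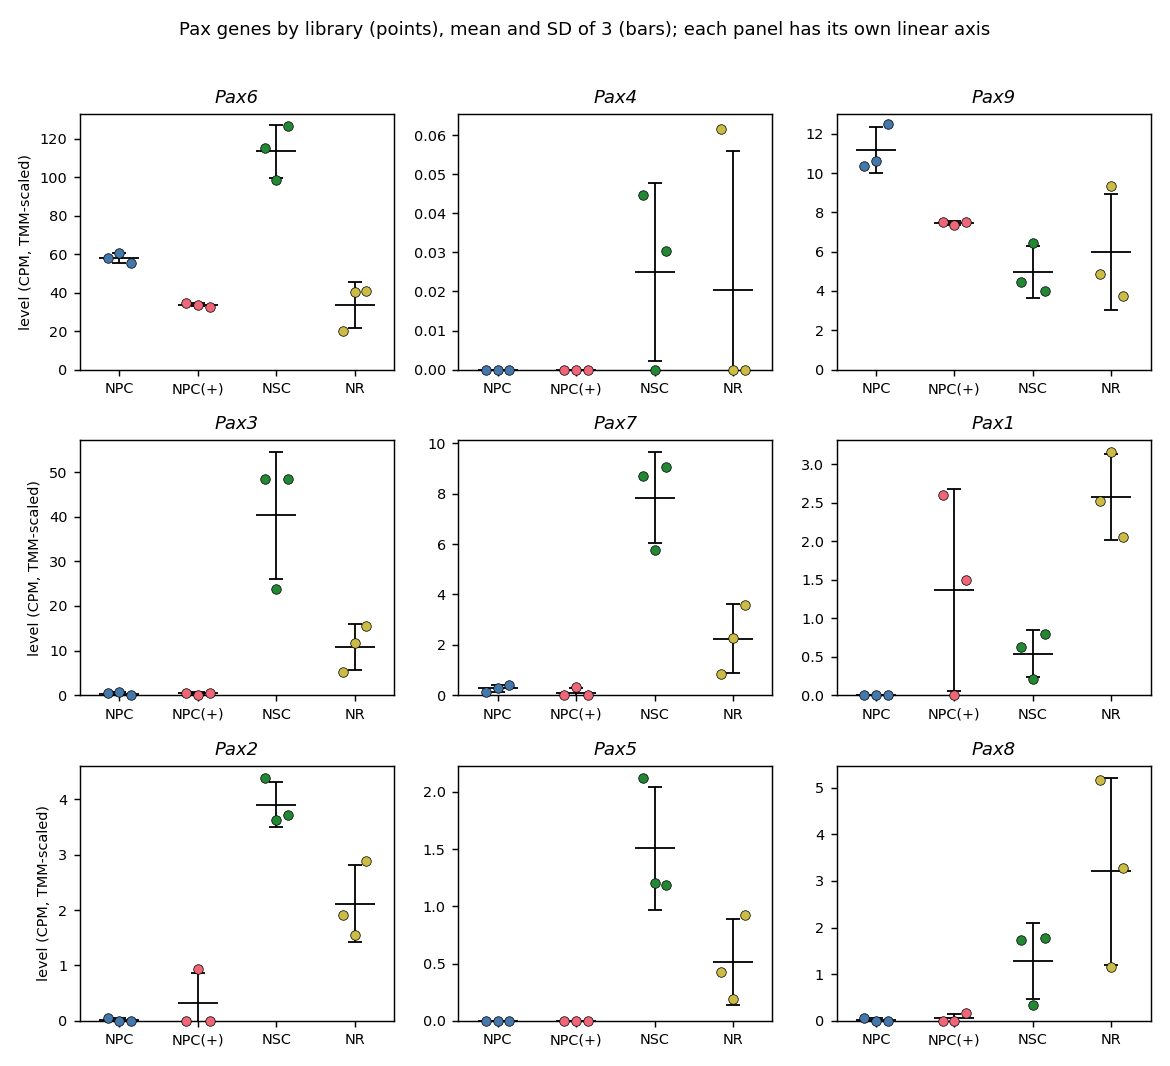
Level of each Pax gene in CPM (vertical axis, a linear scale of its own per panel) in every library of NPC, NPC(+), NSC and NR (horizontal axis), with points for libraries and bars for the mean ± SD of 3. *Pax6* and *Pax9* have counts in all 12 libraries, and *Pax2*, *Pax3*, *Pax5* and *Pax7* are highest in NSC.

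*Pax4*, the partner of *Pax6* in its subfamily, was not detectable at this depth beyond single reads. It lies at chr6:28442334-28449353. It had 2, 0 and 1 counts in NSC, 1, 0 and 0 in NR and none in the 6 progenitor libraries. These 3 counts in NSC and 1 in NR are at or under the limit of 3 counts, so no fold change is given.

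*Pax9* was the only other member with counts in every library and the only one with its highest level in NPC. It lies at chr12:56691767-56712822 on the plus strand. NPC libraries held 10.4, 10.6 and 12.5 CPM and NPC(+) libraries held 7.52, 7.37 and 7.50. These groups did not overlap. NSC libraries held 4.47, 6.45 and 3.99 CPM and NR libraries held 4.86, 9.32 and 3.73, and the highest NR library lay above all of NPC(+). *Pax9* was lower in NSC than in NPC (-1.16, SE 0.30, adjusted p = 0.00299) and in NR than in NPC (-0.89, SE 0.30, adjusted p = 0.0146), the latter no longer called after thinning (adjusted p = 0.113). Between NPC(+) and NPC the log2 fold change was -0.57 (SE 0.32, adjusted p = 0.188), so that a gap without overlap did not pass the test when the spread was estimated over all 4 groups. With only these groups in the fit it passed (-0.53, adjusted p = 0.00872). NPC(+), NR and NSC were not told apart, with 0.59 for NPC(+) against NSC (adjusted p = 0.111), 0.32 for NPC(+) against NR (adjusted p = 0.382) and 0.27 for NR against NSC (SE 0.29, adjusted p = 0.454). The NR libraries decided part of this. Without NR replicate 2, *Pax9* was called lower in NPC(+) than in NPC (-0.57, adjusted p = 0.0614) and higher than in NSC (0.59, adjusted p = 0.0291) and in NR (0.81, adjusted p = 0.0103), and the call against NSC was also made without NSC replicate 2 (0.85, adjusted p = 0.0365) or NR replicate 3 (0.64, adjusted p = 0.0506). That call, NPC(+) above NSC, was further made with the replicate block (0.60, adjusted p = 0.0623), with only these groups in the fit (0.61, adjusted p = 0.0388) and after thinning (1.17, adjusted p = 0.0264), so it was made under 6 of 21 alternatives. Thinning also called NR above NSC (1.12, adjusted p = 0.0495), while without NR replicate 2 that difference was -0.22 (adjusted p = 0.444).

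*Slc25a21*, a mitochondrial carrier gene on the other strand, shares 189 bases with the exons of *Pax9*, which is 3.74% of them, and the strand setting of the counting is not given in the sources used here. *Slc25a21* had 128, 271 and 86 counts in NSC, 9, 125 and 36 in NR and at most 1 in a progenitor library. Scaled as CPM, NSC replicate 2 and NR replicate 2 held the most *Slc25a21* and the most *Pax9* of their groups. In unscaled counts NSC replicate 1 held more *Pax9* than NSC replicate 2, 200 against 187. Its part in the *Pax9* values of NSC and NR was not tested, and in NPC and NPC(+) it was at or near 0.

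*Pax1*, the closest relative of *Pax9*, was lowest in NPC, where *Pax9* was highest. It lies at chr2:147361925-147393295, and it had 0 counts in all 3 NPC libraries, 9, 0 and 9 in NPC(+), 28, 6 and 26 in NSC and 41, 98 and 73 in NR. As CPM these were 2.6, 0 and 1.50 in NPC(+), 0.626, 0.207 and 0.792 in NSC and 2.52, 3.16 and 2.05 in NR. The gene was therefore found in 2 of 3 NPC(+) libraries, and NPC(+) replicate 2 overlapped with NPC at 0. Against the limit of 3 counts over NPC, *Pax1* was at least 10.9-fold higher in NPC(+) (adjusted p = 0.0112), at least 5.39-fold higher in NSC (adjusted p = 0.0146) and at least 24.5-fold higher in NR (adjusted p = 0.000393). These calls rest on few reads. After thinning, NPC(+) kept 9, 0 and 4 counts and the gene no longer passed the filter on low counts. Without NPC replicate 1 the call in NSC against NPC was lost, since its unadjusted p was no longer under 0.05 (adjusted p = 0.0838). NR was above NSC without overlap (2.21, SE 0.60, adjusted p = 0.00898), whereas NPC(+) was not told apart from NSC (1.12, adjusted p = 0.226, and 1.82 with an adjusted p of 0.0200 without NPC(+) replicate 2) or from NR (-1.09, adjusted p = 0.189). Without a filter on low counts NPC(+) was called below NR (-1.11, adjusted p = 0.0370).

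*Pax3* was the second member of the family in NSC and was near 0 in the progenitors. It lies at chr1:78101267-78197134 and had 8, 5 and 0 counts in NPC and 2, 1 and 3 in NPC(+), against 2168, 692 and 1592 in NSC and 85, 365 and 551 in NR. In CPM, NPC libraries held 0.477, 0.697 and 0, and NPC(+) libraries held 0.578, 0.157 and 0.500. NSC libraries held 48.5, 23.9 and 48.5 CPM and NR libraries held 5.23, 11.8 and 15.5. The 2 progenitor groups overlapped, and every NSC library lay above every NR library and every NR library above every progenitor library. *Pax3* was 88.7-fold higher in NSC than in NPC (log2 fold change 6.47, SE 0.56, adjusted p = 1.66e-07) and also higher in NR (4.60, SE 0.58, adjusted p = 6.92e-06), while NR was lower than NSC (-1.88, SE 0.35, adjusted p = 0.000639). For NPC(+) against NPC the log2 fold change was -0.23 (SE 1.17, adjusted p = 0.919), a difference not detectable at this depth. Its sign turned without NPC replicate 2 (0.078) or NPC(+) replicate 2 (0.24).

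*Pax7* followed *Pax3* at a lower level. It lies at chr4:139737062-139833528 and had 2 counts in each NPC library and 0, 2 and 0 in NPC(+), against 390, 167 and 297 in NSC and 14, 71 and 128 in NR. NSC libraries held 8.72, 5.76 and 9.04 CPM and NR libraries held 0.861, 2.29 and 3.59, without overlap. *Pax7* was 35.3-fold higher in NSC than in NPC (5.14, SE 0.64, adjusted p = 6.07e-06), higher in NR than in NPC (3.39, SE 0.69, adjusted p = 0.000464) and lower in NR than in NSC (-1.75, SE 0.40, adjusted p = 0.00252). With 6 counts in NPC and 2 in NPC(+), scaled for depth the ratio was 1.65 in favour of NPC, with an exact 95% interval from 0.296 to 16.7 that covers counting error only.

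**Figure D2:**
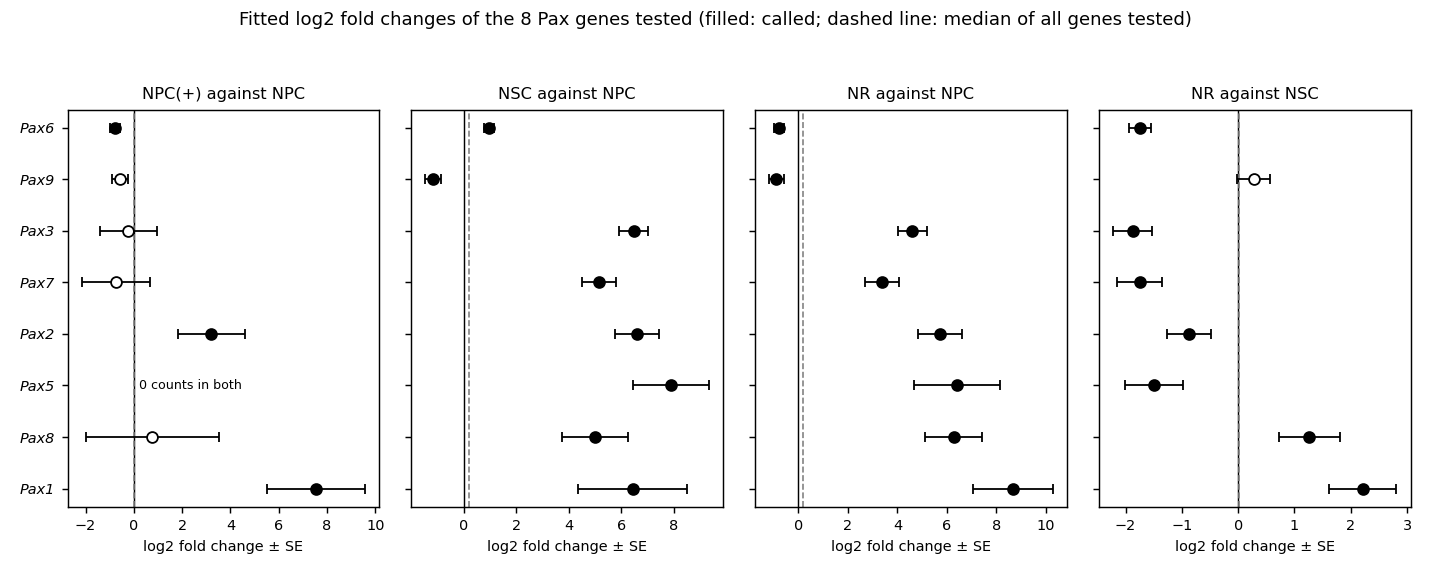
Log2 fold change (horizontal axis) with its standard error for each tested Pax gene (vertical axis) in NPC(+) against NPC, NSC against NPC, NR against NPC and NR against NSC. Filled points passed the test, the dashed line is the median of all tested genes, and *Pax5* is marked where both groups had 0 counts.

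*Pax2*, *Pax5* and *Pax8*, the subfamily of the midbrain-hindbrain boundary, were at or near 0 in both progenitor groups. *Pax2* lies at chr19:44756045-44837871 and had 1, 0 and 0 counts in NPC, 0, 6 and 0 in NPC(+), 196, 105 and 122 in NSC and 31, 48 and 103 in NR. NSC libraries held 4.38, 3.62 and 3.71 CPM and NR libraries held 1.91, 1.55 and 2.89. All 6 of its counts in NPC(+) came from replicate 2, the library in which *Pax1* was at 0. Scaled for depth, the ratio of NPC(+) to NPC was 10.9, with an exact 95% interval from 1.32 to 501, and the log2 fold change of 3.21 (SE 1.40, adjusted p = 0.0887) passed the test. Without NPC(+) replicate 2 it was -2.74 (adjusted p = 0.614), so the call rests on 1 library. *Pax2* was also higher in NSC than in NPC, with a ratio of 114 (20.4 to 4517, adjusted p = 8.19e-06), and in NR, with a ratio of 63.1 (11.2 to 2506, adjusted p = 5.37e-05). NR lay below NSC without overlap (-0.87, SE 0.39, adjusted p = 0.0798), a call that was lost without NSC replicate 1 or 3, NR replicate 1 or 2 or any NPC replicate (adjusted p from 0.0956 to 0.184), after thinning and under upper-quartile scaling.

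*Pax5*, at chr4:44524757-44710487 on the minus strand, had 0 counts in all 6 progenitor libraries. It had 95, 35 and 39 counts in NSC, or 2.12, 1.21 and 1.19 CPM, and 7, 6 and 33 in NR, or 0.431, 0.193 and 0.926 CPM. Every NSC library was above every NR library. *Pax5* was at least 15.2-fold higher in NSC than in NPC (adjusted p = 0.000668) and at least 5.32-fold higher in NR (adjusted p = 0.00711). NR was lower than NSC (-1.50, SE 0.51, adjusted p = 0.0337), and this call was lost without NSC replicate 1 (-1.17, adjusted p = 0.123) and under DESeq2's Wald test (-1.51, adjusted p = 0.109).

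*Pax8*, at chr2:24420560-24475599, was the member of this subfamily that was highest in NR. It had 1 count in NPC and 1 in NPC(+), so no fold change is given between them. NSC had 78, 10 and 58 counts, or 1.74, 0.345 and 1.77 CPM, and NR had 84, 36 and 117 counts, or 5.17, 1.16 and 3.28 CPM. NR replicate 2 lay inside the range of NSC. The ratio to NPC was 39.4 in NSC (6.96 to 1566, adjusted p = 0.0027) and 82.2 in NR (14.6 to 3259, adjusted p = 0.000211). NR was above NSC (1.26, SE 0.54, adjusted p = 0.0689), and the call was lost without NSC replicate 2 (0.82, adjusted p = 0.155), without NR replicate 1 (0.77, adjusted p = 0.286) and without NR replicate 3 (1.23, adjusted p = 0.135), and also, with adjusted p of 0.0998 and 0.0932, without NPC replicate 1 or NPC(+) replicate 3. It was also lost under DESeq2's Wald test (1.33, adjusted p = 0.129) and with only these groups in the fit (1.22, adjusted p = 0.181).

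Set against all tested genes, the counts of members called were as follows. Only *Pax6* and *Pax9* reached the filter in the libraries of every group, and the other 6 tested members passed it mostly through NSC and NR, where they are high, so these counts are a description only. In NPC(+) against NPC, 2 of 8 members were called higher (*Pax1* and *Pax2*) where 21.6% of all genes were, and 1 lower (*Pax6*) where 22.7% were. In NSC against NPC, 7 of 8 were higher (42.7% of all genes) and 1 lower (32.5%), and in NR against NPC 6 were higher (44.2%) and 2 lower (32.8%). In NR against NSC, 2 were higher (29.5%), which were *Pax1* and *Pax8*, and 5 lower (25.8%). NPC(+) had 0 members above NSC (30.0%) and 6 below (40.0%), and 0 above NR (30.8%) and 5 below (42.9%). Both counts of 0 come from edgeR's quasi-likelihood test, and they were also 0 at an unadjusted p under 0.05 and by DESeq2's Wald test. The median log2 fold change of all tested genes was 0.20 in NSC against NPC, 0.19 in NR against NPC and 0.01 in NR against NSC. These comparisons share libraries and are not independent of each other.

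The 6 members called lower in NPC(+) than in NSC, where 40.0% of all genes were lower, were *Pax6*, given above, and *Pax2*, *Pax3*, *Pax5*, *Pax7* and *Pax8*, with adjusted p of at most 0.0136. The latter 5 were also called lower in NPC(+) than in NR, where 42.9% of all genes were, with adjusted p of at most 0.0234. *Pax3* was lower in NPC(+) than in NSC by 6.70 on the log2 scale, and the ratio was 63.5 for *Pax7* (17.5 to 525), at least 8.37 for *Pax5* and 21.7 for *Pax8* (3.83 to 863). Against NR, *Pax3* was lower by 4.83, and the ratio was 20.3 for *Pax7* (5.56 to 169), at least 2.93 for *Pax5* and 45.3 for *Pax8* (8.05 to 1796). *Pax2* was lower than in NSC (-3.37, adjusted p = 0.00032) and than in NR (-2.50, adjusted p = 0.00401). Both values rest on the 6 counts of NPC(+) replicate 2. Without that library *Pax2* was at 0 in NPC(+), and the fitted values were -9.34 (adjusted p = 3.84e-05) and -8.47 (adjusted p = 0.000182), which depend on the prior count. The counts of *Pax7* in NPC(+) also came from replicate 2 and that of *Pax8* from replicate 3, and without these libraries both were at 0 there.

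Compared per length of exon, the family was made up mainly of 2 members in NPC, joined by *Pax1* in some NPC(+) libraries. In the stem cell groups it was a broad set. In RPKM, NPC held 4.96 of *Pax6* and 2.21 of *Pax9*, and no other member had a mean above 0.0632. NPC(+) held 2.89 of *Pax6*, 1.48 of *Pax9* and 0.304 of *Pax1*, and these 3 ranges did not overlap. In NSC the order was *Pax6* (9.71), *Pax3* (6.51), *Pax7* (1.34), *Pax9* (0.983), *Pax2* (0.722), *Pax8* (0.212), *Pax5* (0.170) and *Pax1* (0.121). The ranges of *Pax6* and *Pax3* did not meet there, those of *Pax7* and *Pax9* overlapped, those of *Pax9* and *Pax2* overlapped, and those of *Pax8*, *Pax5* and *Pax1* overlapped. In NR the order was *Pax6* (2.88), *Pax3* (1.75), *Pax9* (1.18), *Pax1* (0.574), *Pax8* (0.529), *Pax2* (0.391), *Pax7* (0.384) and *Pax5* (0.0584), and the ranges of neighbours in this order overlapped except between *Pax9* and *Pax1* and between *Pax7* and *Pax5*.

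As shares of the family's summed RPKM, *Pax6* and *Pax9* together made up nearly all of it in NPC, with 65.2 to 69.6% for *Pax6* and 28.2 to 33.9% for *Pax9*. In NPC(+) *Pax6* held 57.9 to 62.9%, *Pax9* held 29.0 to 31.6% and *Pax1* held 0 to 11.3%. In NSC the share of *Pax6* was 45.7 to 54.6% and that of *Pax3* 24.9 to 36.3%. NR libraries had the lowest shares of *Pax6*, with 30.8 to 39.2% for *Pax6*, 15.3 to 27.8% for *Pax3*, 8.21 to 21.0% for *Pax9* and 2.18 to 15.5% for *Pax8*. The summed CPM of all 9 members was 68.6 to 72.1 in NPC and 42.5 to 45.4 in NPC(+), and it was 140 to 196 in NSC and 40.9 to 72.9 in NR. A library had counts for 3 to 6 members in NPC, 4 or 5 in NPC(+) and 8 or 9 in NSC and in NR, and the depth differs in the same direction.

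**Figure D3:**
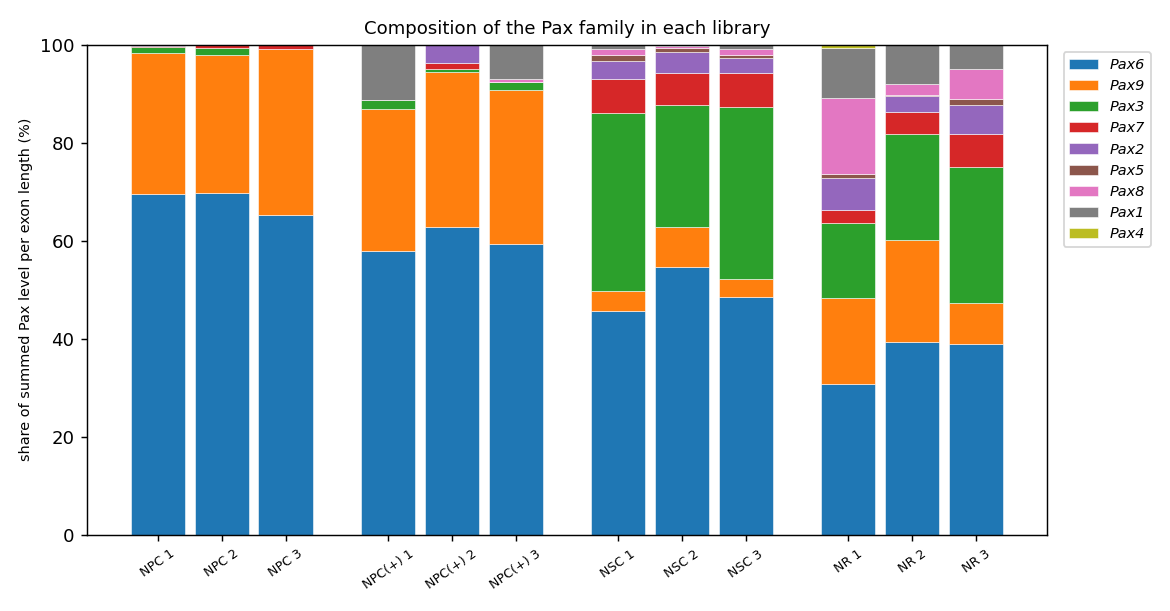
Share of the Pax family's summed RPKM in percent (vertical axis, stacked from 0) for each of the 12 libraries (horizontal axis), with colours for members. *Pax6* and *Pax9* fill nearly the whole bar in NPC and most of it in NPC(+), and *Pax3* and *Pax7* take a visible share in NSC and NR.

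Genes that work with the family were counted by lists. Of all tested genes, 21.6% were called higher and 22.7% lower in NPC(+) against NPC, and 42.7% and 32.5% in NSC against NPC. In NR against NPC the shares were 44.2% and 32.8%, and in NR against NSC 29.5% and 25.8%. The counts of each list are to be read beside these shares and are a description only. Among 14 tested partners and corepressors, which bind Pax proteins or switch their targets off, 4 were higher and 6 lower in NPC(+) against NPC (median log2 fold change -0.21, where the median of all genes was 0.00). Besides *Sox2*, the groucho corepressor gene *Tle2* rose (1.06, SE 0.21, adjusted p = 0.00123), and the genes *Ets1*, whose protein binds with Pax5 (-0.83), and *Paxbp1*, which links Pax3 and Pax7 to a histone methyltransferase (-0.86), fell. In NSC against NPC 8 were higher and 5 lower (median 0.52), in NR against NPC 5 and 6 (0.13), and in NR against NSC 1 and 7 (-0.35).

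Sine oculis homeobox, *Eya* and *Dach* genes, which act with Pax genes in the eye, ear and kidney, had 4 of 12 members higher and 0 lower in NPC(+) against NPC (median 0.31). These were *Eya2*, a cofactor with phosphatase activity, at 8.68 CPM against 1.93 (2.28, SE 0.32, adjusted p = 7.22e-05), *Eya1* at 1.05 against 0.473 (1.64, adjusted p = 0.0283), *Six3*, a factor of the anterior neural plate and eye, at 1.91 against 0.484 (1.62, adjusted p = 0.0276), and *Dach1* at 0.974 against 0.308 (1.58, adjusted p = 0.0772). Their levels in NSC were higher still, with 24.6 CPM of *Eya2*, 36.8 of *Eya1*, 3.77 of *Six3* and 49.8 of *Dach1*. In NSC against NPC 9 of the 12 were higher and 3 lower (median 1.77), in NR against NPC 7 and 1 (1.69), and in NR against NSC 4 and 6 (-0.64).

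Of 12 tested genes of cortical progenitors and early neurogenesis that are known as targets of *Pax6*, 1 was higher and 5 lower in NPC(+) against NPC (median -0.08). *Fabp7*, a lipid carrier of radial glia, fell from 743 to 346 CPM (-1.10, SE 0.27, adjusted p = 0.00484). *Cdk6*, a kinase of the cell cycle, was lower (-0.84), and so was *Emx2*, a cortical homeobox gene (-0.71). The 1 gene that rose, *Neurod1* (0.59, adjusted p = 0.00478), lies outside the naming rule and was named after its values were seen. *Neurog2*, a proneural target, was at 0.964 CPM in NPC and 0.405 in NPC(+), a difference that did not pass the test (-1.34, adjusted p = 0.172), against 40.3 in NSC and 13.6 in NR. In NSC against NPC 7 were higher and 4 lower (median 1.29), in NR against NPC 5 and 6 (-0.28), and in NR against NSC 3 and 9 (-1.08). The 3 genes higher in NR than in NSC were led by *Tfap2c*, at 76.2 CPM in NR and 4.47 in NSC. *Tfap2c* also belongs to surface ectoderm and germ cells, beside the marker sums of NR given above. The part of such cells in these values was not tested.

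Factors that divide the neural tube into domains together with *Pax6*, *Pax3* and *Pax7* had the largest median of the 11 lists in NSC against NPC. Of 13 tested, 10 were higher and 3 lower in NSC against NPC (median 4.88), 10 and 3 in NR against NPC (3.40), and 0 and 11 in NR against NSC (-1.47). *Dbx1*, a factor of ventral interneuron progenitors, was at 104 CPM in NSC, 35.3 in NR, 0.239 in NPC and 0.510 in NPC(+). *Nkx6-2* was at 96.6, 31.2, 0.547 and 0.368 CPM in the same order. *Olig2*, a factor of motor neuron and oligodendrocyte progenitors, ran the other way, at 683 CPM in NPC and 330 CPM in NPC(+), and only 28.3 CPM in NSC and 9.86 CPM in NR. In NPC(+) against NPC 2 were higher and 3 lower (median -0.43). The higher ones were *Msx2*, a factor of the dorsal neural tube, with 1, 0 and 0 counts in NPC and 4, 18 and 3 in NPC(+) (adjusted p = 0.000299), and its relative *Msx1*, at 26.6 CPM against 15.1 (0.82, adjusted p = 0.0715), which lies outside the naming rule. The lower ones were *Olig2* (-1.05, adjusted p = 0.00809), *Irx3* (-0.88, adjusted p = 0.0116) and *Dbx2* (-2.52, adjusted p = 0.00237).

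Of 10 midbrain-hindbrain genes, which act with *Pax2*, *Pax5* and *Pax8*, 0 were higher and 0 lower in NPC(+) against NPC by edgeR's quasi-likelihood test (median 0.51). In NSC against NPC 6 were higher and 2 lower (median 3.72), led by *Sp8* (43.1 CPM against 0.487) and *Otx2* (8.18 against 0.126), and in NR against NPC 7 and 2 (2.80). In NR against NSC 3 were higher and 4 lower (-0.26), with *Otx2*, a factor of forebrain and midbrain, higher (2.11) and *En2*, which Pax2 proteins activate, lower (-1.63). Among 9 tested neural crest and muscle genes of *Pax3* and *Pax7*, 3 were higher and 1 lower in NPC(+) against NPC (median 0.67), 7 and 2 in NSC against NPC (4.35), 6 and 2 in NR against NPC (5.06) and 3 and 2 in NR against NSC (0.14). *Snai2*, a repressor that drives crest cells to migrate, had 1, 2 and 0 counts in NPC and 22, 37 and 29 in NPC(+), and *Met*, a receptor that Pax3 activates in limb muscle precursors, was higher (2.73, SE 0.60, adjusted p = 0.00255). *Lbx1*, a homeobox gene of migrating muscle precursors and dorsal spinal interneurons, was the other gene that rose (1.44, adjusted p = 0.0291), and *Mitf*, the regulator of pigment cells, fell (-1.16, adjusted p = 0.00886).

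The lists that belong to other organs held fewer tested genes. Of 7 kidney and thyroid genes 0 were higher and 3 lower in NPC(+) against NPC (median -0.66), which were *Slc5a5* (-1.06), *Emx2* and *Gata3* (-0.66), and of 7 sclerotome genes of *Pax1* and *Pax9* 1 was higher, *Foxc2* (1.31, adjusted p = 0.0621), and 2 lower, *Meox1* (-2.01, adjusted p = 0.0204) and *Sox9*, which also marks neural progenitors (-1.33, adjusted p = 0.00189), with a median of -0.48. Of 5 endocrine pancreas genes 1 was lower (*Insm1*, -0.79), of 3 B cell genes 1 was lower (*Ebf1*, -0.87), and of 7 lens and eye genes 1 was higher (*Cryab*, 2.69) and 1 lower (*Mitf*, -1.16). Their medians were -0.79, -0.87 and 0.50, and with genes without counts in a group set at their bound the median of the pancreas list was -0.51 and those of the sclerotome and B cell lists were 0. In NSC against NPC the counts higher and lower were 4 and 2 for kidney and thyroid, 4 and 1 for sclerotome, 5 and 0 for pancreas, 1 and 0 for B cells and 3 and 1 for lens and eye. In NR against NSC they were 3 and 2, 5 and 1, 1 and 3, 2 and 0, and 1 and 3 in that order. Beside the 5 sclerotome genes and *Pax1*, which were higher in NR than in NSC, the mesoderm markers summed to 113 to 162 CPM in NR against 39.6 to 45.1 in NSC, and their part in it was not tested. The counts of 0 in these lists were also 0 at an unadjusted p under 0.05 and by DESeq2, except that 1 midbrain-hindbrain gene was higher in NPC(+) than in NPC at an unadjusted p under 0.05 and 1 was lower by DESeq2.

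**Figure D4:**
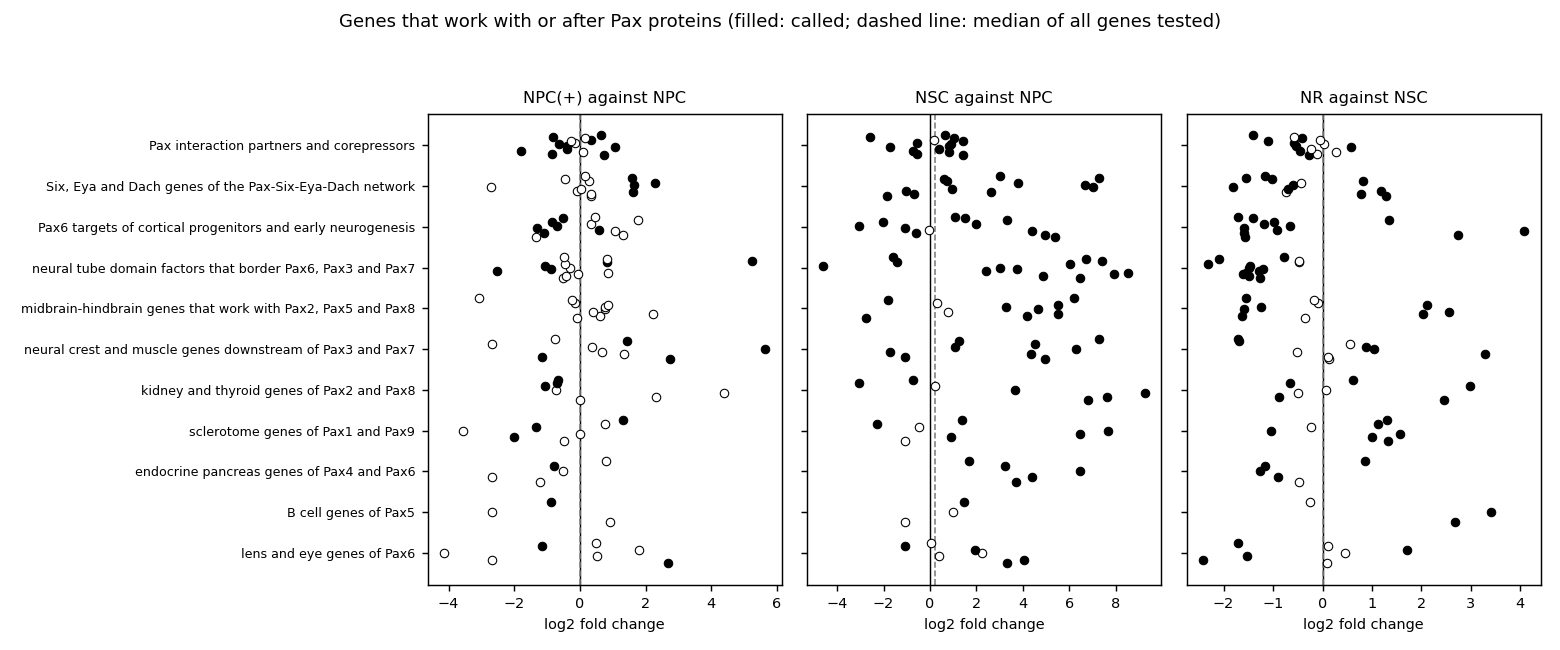
Log2 fold change (horizontal axis) of each tested gene of 11 lists (vertical axis) in NPC(+) against NPC, NSC against NPC and NR against NSC, with filled points for genes that passed the test and a dashed line at the median of all tested genes. The neural tube list lies mostly above 0 in NSC against NPC (median 4.88) and mostly below 0 in NR against NSC (median -1.47).

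The progenitor groups were checked for other cell types in which Pax genes are active. The 6 markers of neural crest summed to 5.01 to 7.51 CPM in NPC and 13.0 to 18.5 CPM in NPC(+), against 51.4 to 55.5 CPM in NSC and 50.0 to 66.8 CPM in NR. Of the 5 tested crest markers, only 1 was called higher in NPC(+) than in NPC and 0 lower. The higher crest sum is therefore not a call shared by most of its markers. The sums for mesoderm were 20.2 to 23.1 in NPC and 18.8 to 21.4 in NPC(+), and those for surface ectoderm and placodes were 6.98 to 9.59 and 8.68 to 12.9. Markers of endoderm, where *Pax9* and *Pax1* mark the pharynx, summed to 26.7 to 35.5 CPM in NPC and 42.5 to 49.9 CPM in NPC(+), against 54.8 to 72.6 CPM in NSC and 63.6 to 64.3 CPM in NR. The endoderm sum was higher in each NPC(+) library than in any NPC library, beside *Pax1*. Of its 5 tested markers, *Foxa2* (0.96) and *Cxcr4* (0.76, adjusted p = 0.0522), which other cells also express, were called higher and none lower. *Gata4*, which makes up most of the sum, was at 20.3 CPM in NPC and 27.0 in NPC(+) without a call (adjusted p = 0.232). The defining markers *Sox17* and *Afp* had 0 counts in all NPC(+) libraries, and *Afp* in all NPC libraries as well. Neuroepithelial markers summed to 474 to 551 CPM in NPC and 575 to 602 CPM in NPC(+), against 2006 to 2086 CPM in NSC and 523 to 1128 CPM in NR. Of these 8 markers 5 were called higher in NPC(+) than in NPC and 1 lower, *Sox2* (median log2 fold change 1.22). Of all tested genes 21.6% were higher and 22.7% lower. The sum holds the abundant *Sox2* and so rose less than most of its markers. The summed glial markers were higher in the groups labelled as glial progenitors, with 3851 to 4243 CPM for astrocytes and radial glia in NPC and 1849 to 1932 in NPC(+), against 364 to 655 in NSC and 152 to 283 in NR, and with 2402 to 2531 and 1626 to 1759 for the oligodendrocyte lineage against 66.1 to 84.6 and 48.9 to 53.9. The sum of astrocytes and radial glia followed 3 abundant genes that were lower in NPC(+), *Slc1a3* (-1.14), *Fabp7* and *Aldoc* (-0.88). Of its 7 markers 2 were higher in NPC(+), *Aqp4* (3.22, adjusted p = 0.0304) and *Aldh1l1* (1.59, adjusted p = 0.0254), each with a mean below 2 CPM in both groups, and the median log2 fold change was 0.26. Of 6 tested markers of the oligodendrocyte lineage, 3 were higher and 2 lower in NSC against NPC (median 0.81), against the direction of the sum. In NPC(+) against NSC 2 were higher and 4 lower (median -1.35). The sums of that lineage therefore describe its abundant genes, *Olig2* among them, and not most of its markers. *Sox10*, a defining gene of the oligodendrocyte lineage, had 0 counts in NPC and NPC(+). Neuronal markers summed to 480 to 509 CPM in NPC, 426 to 441 in NPC(+), 603 to 759 in NSC and 339 to 514 in NR, but in the progenitors *Map2* alone made up most of the sum, with 464 CPM in NPC and 402 in NPC(+) against 89.8 in NSC and 37.8 in NR. Of the 8 neuronal markers 6 were higher and 1 lower in NSC against NPC (median 4.75) and likewise 6 and 1 in NR against NPC (median 3.97), with *Tubb3*, a neuronal tubulin, at 5.37 CPM in NPC, 253 in NSC and 137 in NR. In NPC(+) against NPC 1 was higher, *Dcx*, a gene of young neurons (2.77, adjusted p = 0.00311), and 0 lower.

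Genes next to the members on the chromosome were read to see whether a change was shared along the locus. Over the 8 tested members, 8 of 32 neighbours (25%) were higher in NPC(+) than in NPC, where 21.6% of all genes were. In the same comparison 7 (21.9%) were lower, where 22.7% of all genes were, so that both shares lay near those of all genes there. Around *Pax6*, *Elp4*, which lies 3.7 kb away and is known to hold *Pax6* enhancers, was lower in NPC(+) (-0.45, SE 0.12, adjusted p = 0.0077), as were *Rcn1* (-0.64) and *Immp1l* (-0.28), while *Wt1* had 0 counts in NPC and NPC(+). All 3 neighbours with counts were therefore lower, each by less than *Pax6*. Around *Pax3*, which was not called, *Epha4* (-2.23), *Sgpp2* (-1.94) and *Farsb* (-0.54) were lower. Around *Pax1*, *Foxa2*, an endoderm and floor plate factor 649.6 kb away, was higher (0.96, adjusted p = 0.0659). Around *Pax2*, *Ndufb8* (0.34) and *Slf2* (0.47) were higher, and around *Pax8*, for which no change is given, *Psd4* (2.32), which lies 5.6 kb away, and *Cacna1b* (1.30) were. *Iffo2* (0.76) and *Igsf21* (0.33) were higher around *Pax7*, and around *Pax5* *Melk* was higher (0.27) and *Zcchc7* lower (-0.45). Around *Pax9* none of the 4 nearest tested genes was called by edgeR's quasi-likelihood test (adjusted p of 0.167 or more). In NSC against NPC, 22 of the 32 neighbours (68.8%) were higher and 6 (18.8%) lower, where 42.7% and 32.5% of all genes were. In NR against NPC these were 19 (59.4%) and 7 (21.9%), where 44.2% and 32.8% were. In NPC(+) against NSC 6 (18.8%) were higher and 21 (65.6%) lower, where 30.0% and 40.0% were. These shares are a description only, and a shared cause was not tested.

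The genes whose levels over the 12 libraries lay closest to each member were found by the root mean square difference of log2 CPM, each gene centred on its own mean. For *Pax6* they were *Pou3f2*, a neural POU factor (0.172), *Lrrn1* (0.198) and *Sema5b* (0.218), where the median over all tested genes was 1.02. For *Pax9* they were *Rell1* (0.227), *D17H6S53E* (0.233) and *Abhd4* (0.244), with a median of 0.831. Both members thus had genes that tracked them closely in all 12 libraries. For *Pax3* the closest was *Glra1*, a glycine receptor subunit (0.599, median 2.93), for *Pax7* *Pkd2l1*, a channel of neurons that contact the cerebrospinal fluid (0.595, median 2.27), for *Pax2* *Cbln1* (0.449, median 2.24), for *Pax5* *Fam196b* (0.407, median 1.75), for *Pax8* *Itih2* (0.245, median 2.05) and for *Pax1* *Marveld3*, a tight junction gene (0.883, median 2.05). The 12 libraries form only 4 groups, so genes that share the group pattern lie close in this measure.

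**Figure D5:**
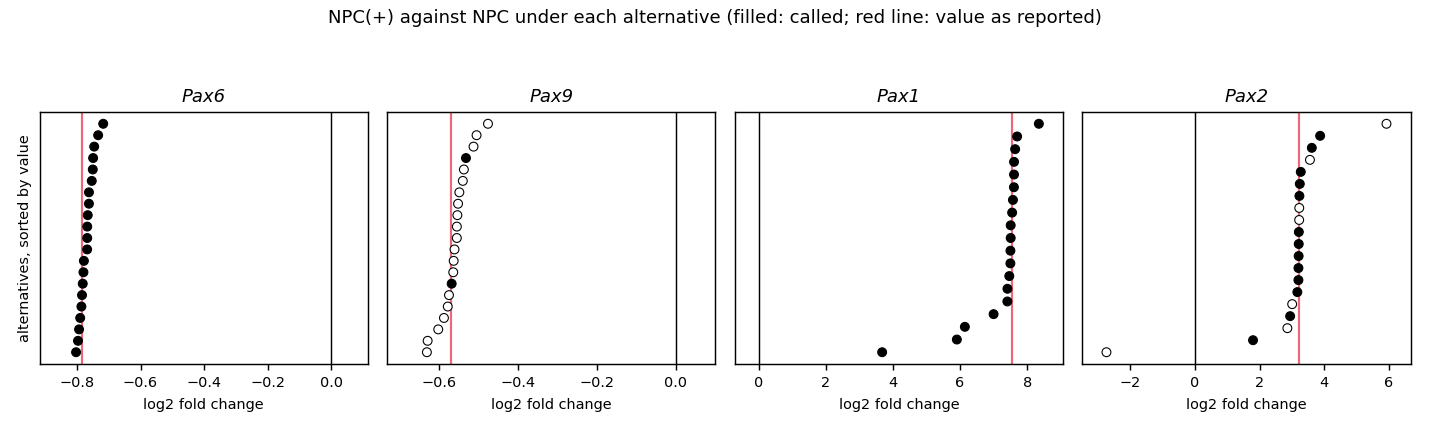
Log2 fold change of NPC(+) against NPC (horizontal axis) for *Pax6*, *Pax9*, *Pax1* and *Pax2* (panels) under each alternative way of processing the counts (vertical axis, sorted by value), with filled points where the gene was called and a red line at the value as reported. *Pax6* stays between -0.80 and -0.72 and called throughout, and *Pax2* changes sign without NPC(+) replicate 2.

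Over 21 alternatives, *Pax6* kept its call in NPC(+) against NPC with log2 fold changes between -0.80 and -0.72, and a threshold of more than 4-fold would leave it out. *Pax1* kept its call under the 19 alternatives in which it could be tested, and a filter of 10 counts in every library and thinning both removed it from the test. *Pax2* lost its call under 7 of 20. Between the members, the fall of *Pax6* is therefore the difference of NPC(+) that rests on many reads, 1673 in NPC and 533 in NPC(+), and those of *Pax1* and *Pax2* rest on 18 and 6 reads in NPC(+).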

How the data were processed

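RNA of the 12 libraries was isolated with the PicoPure kit, amplified with SMART-Seq v4 and sequenced, and the authors deposited whole-number counts of reads per gene, not normalized. The submitters' processing notes name STAR 2.6, RSEM 1.1.14 and mm10, and their settings, including strand, are not given in the sources used here. The whole numbers were used as deposited. Symbols, coordinates and exon lengths came from GENCODE M21 (GRCm38), matched by Ensembl identifier for 45143 of 45706 genes, and promoters from RefSeq.

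Groups followed the titles. Tests ran in edgeR 4.0.16 (limma 3.58.1, R 4.3.3) by the quasi-likelihood method over the 4 groups, after filterByExpr and TMM scaling, with a prior count of 0.125 in log2 fold changes and 2 in log2 CPM. A gene was called at a Benjamini-Hochberg adjusted p under 0.1 over 17003 genes and a p under 0.05. The filter asked for about 0.570 CPM in 3 libraries. A group at 0 was set at 3 counts, and ratios against 1 to 3 counts carry exact 95% binomial intervals. These cover counting error only, because reads had no molecular identifiers. The scripts were tested on simulated data. The changed genes there were taken from those above a count limit in the smallest library, with a fixed spread between replicates. That check therefore does not cover the calls that rest on few reads. Replicates were prepared on different days. All replicate pairs of a group differed by more than sampling noise (chi-square per degree of freedom 1.59 or more). An exact permutation test of 3 against 3 cannot go below 0.1, so p values come from the fits across all genes.

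Same-numbered NR and NSC libraries deviated together (correlations 0.229, 0.490 and 0.296). The labels state no pairing and libraries of unlike number were not compared, so whether they are pairs is not settled. The replicate block changed no call of NR against NSC. All 9 members are described, with the 3 most similar genes, the 2 nearest tested genes on either side and, per list and comparison, up to 4 called genes of largest change as the naming rule, beside *Sox1* and *Sox2*. Of the list genes, *Tle5* was not matched. A gene that the rule would name is not reported here. The members and lists were chosen with earlier results of these data known. Alternatives were DESeq2 1.42.0, other scalings, filters, thresholds and prior counts, thinning, the replicate block, a fit with no more than the 2 groups at hand and the omission of each replicate. Scripts used matplotlib 3.10.9, scipy 1.17.1 and pandas 2.3.3 in Python 3.11.15.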

Additional observations from a re-analysis of the deposited data

Results flagged for a closer look

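The labels cross sorted and unsorted cells with progenitors and stem cells, so the change from NPC to NPC(+) was set against the change from NSC to NR in the same fit, although the arms differ in more than the sort. This takes NPC as unsorted, as labelled. The study's own text speaks of sorting for NPC and NPC(+), and if NPC had been sorted too, the contrast would not cross the sort with the stage. For *Pax6* both changes were falls, of -0.78 in the progenitors and -1.74 in the stem cells on the log2 scale, and their difference of 0.96 (SE 0.29, adjusted p = 0.0175) passed edgeR's quasi-likelihood test. All 3 NPC(+) libraries lay below NPC and all 3 NR libraries below NSC. Without any 1 library the difference lay between 0.69 and 1.14.

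For *Pax2* the changes had opposite directions, 3.21 in the progenitors and -0.87 in the stem cells, and their difference of 4.09 (SE 1.44, adjusted p = 0.0360) passed the test. Only 1 of 3 NPC(+) libraries was above NPC. Without NPC(+) replicate 2 the difference was -1.87 (adjusted p = 0.695), so this result rests on the 6 counts of 1 library.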

How the results depend on the processing

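The main limit is depth in the progenitors, where 6 of the 8 tested members had few or no counts. Over 48 gene results and 954 alternatives, 898 kept their direction and side of the threshold, 26 lost the call, 13 gained it and 17 changed sign. Only 1 of the 17 had been called, *Pax2* in NPC(+) against NPC without NPC(+) replicate 2 (-2.74), and the other 16 were differences that had not been called. Of these, 12 were of *Pax6* in NPC(+) against NR, which stood near 0 at 0.0025 after thinning, 0.032 with only the 2 groups compared and 0.0079 with the replicate block. The labels do not say that a replicate number marks a shared batch. Same-numbered libraries other than those of NR and NSC correlated between -0.0472 and 0.0619. Libraries of unlike number were not compared, so these values do not settle whether a batch was shared. The cause of the changes below was not tested except where fewer genes or libraries enter by construction.

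With at least 10 counts in every library, which leaves only *Pax6* and *Pax9*, members called higher numbered 0 in NPC(+) against NPC, 1 in NSC against NPC, 0 in NR against NPC and 0 in NR against NSC, and lower 1 in NR against NSC, 1 in NPC(+) against NSC and 0 in NPC(+) against NR. Thinning gave 0, 4, 3 and 1 higher in those first 4 comparisons and 1 in NPC(+) against NSC, and 1 lower in NR against NPC, 3 in NR against NSC and 3 in NPC(+) against NR. With the replicate block, 1 member was higher in NPC(+) against NPC and 1, *Pax9*, in NPC(+) against NSC, and the *Pax9* difference of changes was -0.82 (adjusted p = 0.0864). The block changed no other count, call or difference of changes. With an adjusted p under 0.05, 1 was higher in NPC(+) against NPC and 1 in NR against NSC. A fold over 4 left 0 lower in NPC(+) against NPC, NSC against NPC, NR against NPC and NR against NSC, and 1 higher in NR against NSC. With only the 2 groups compared, 2 were lower in NPC(+) against NPC, 1 was higher in NR against NSC and 1 in NPC(+) against NSC. DESeq2 gave 1 higher in NR against NSC. The difference of changes of *Pax1*, 5.35 (adjusted p = 0.119) as first fitted, was called at 3.64 by DESeq2 and at 5.37 without a filter, and that of *Pax2* was not called at 4.52 after thinning. That of *Pax9* was called at -1.75 after thinning.

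Without each replicate in turn, members higher ranged from 1 to 2 in NPC(+) against NPC, 6 to 7 in NSC against NPC, 1 to 2 in NR against NSC, 0 to 1 in NPC(+) against NSC and 0 to 1 in NPC(+) against NR. Members lower ranged from 1 to 2 in NPC(+) against NPC, where *Pax9* joined *Pax6* without NR replicate 2, and from 3 to 5 in NR against NSC, where the lowest was without NSC replicate 1. *Pax2* in NPC(+) against NPC ranged from -2.74 to 5.93 and was not called without NSC replicate 3, any NPC replicate or NPC(+) replicate 2. Differences that were not called and changed sign ranged from -0.53 to 0.24 for *Pax3* and -2.74 to 3.48 for *Pax8* in NPC(+) against NPC, from -0.22 to 0.53 for *Pax9* in NR against NSC and from -0.23 to 0.21 for *Pax6* in NPC(+) against NR. The differences of changes ranged from 4.79 to 6.14 for *Pax1*, -1.87 to 6.81 for *Pax2*, -3.45 to 1.65 for *Pax7*, -4.01 to 2.22 for *Pax8* and -1.08 to -0.35 for *Pax9*.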
